A study of Mus musculus with 8 samples.

Results

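Sox17, Sox7, Hnf4a, Dab2, Cubn, Amn, Plat, Thbd and Pth1r are 9 mouse genes used as regulators and markers of the extraembryonic endoderm. They were followed through every probe set of the deposited array table that names 1 of them and no other gene, which gave 19 probe sets of 9 genes among 45101 probe sets in all. Transcript levels were measured on 8 Affymetrix arrays, 1 sample and 1 colour each, in a study on parthenogenetic stem cells for engineered heart tissue. EB_PSC (2 arrays) are embryoid bodies, cell aggregates in which parthenogenetic stem cells of the strain C57BL/6 differentiated for 15 days. PSC (3 arrays) are C57BL/6 parthenogenetic stem cells taken at day 6 from blastocysts; these arose from oocytes that strontium chloride had activated, and EB_PSC and PSC thus share an origin without sperm. ESC (3 arrays) hold the embryonic stem cell line R1, kept on mouse embryonic fibroblast (MEF) feeders with leukemia inhibitory factor (LIF). The strain is given for EB_PSC and PSC, feeders are named for ESC, and no embryoid bodies of ESC were compared here. Whether arrays of 1 group stand for separate cultures is not stated, and a p-value here measures only their spread, which may be technical.

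The primitive endoderm is the cell layer that separates from the epiblast in the blastocyst. It gives rise to the visceral endoderm, an absorptive epithelium around the embryo, and to the parietal endoderm, which lays down a thick basement membrane against the trophoblast. GATA factors and the SRY-box factors Sox17 and Sox7 act early in this lineage, Hnf4a drives the absorptive program of the visceral layer, and the endocytic adaptor Dab2 works with the receptor pair of cubilin (Cubn) and amnionless (Amn) in nutrient uptake. Plat, Thbd and Pth1r are classical genes of parietal endoderm. Several of the 9 genes are also read in other tissues, among them endothelium (Sox17, Sox7, Thbd, Plat), kidney tubule (Cubn, Amn, Dab2, Hnf4a, Pth1r), liver and gut (Hnf4a) and bone (Pth1r).

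RefSeq promoter windows of the assembly GRCm38.p6, running from 250 bases before to 50 bases after an annotated start, were at hand for 5 of the 9 genes (Amn, Cubn, Dab2, Hnf4a and Pth1r), with 9 windows in all. They were searched on both strands for the GATA motif, spelled as AGATAA or with a changed end as AGATAG or with a changed start as TGATAA or with both changed as TGATAG, and for the SOX motif, spelled as ACAATG or in its other form as ACAAAG. Letters of the GATA motif stood in 2 of the 9 windows, 1 of Dab2 and 1 of Hnf4a, against 29.8% of 32851 promoters of the same length. SOX letters stood in 1 window, of Pth1r on chromosome 9, against 28.6% of promoters. The windows of Dab2 and Hnf4a that hold GATA letters are printed because GATA factors act upstream in this lineage, and that of Amn because Amn moved unlike the other members. Capitals mark the GATA letters as they read on the printed strand; TTATCT is AGATAA on the opposite strand.
Dab2 promoter, chr15:6299539-6299838, + strand: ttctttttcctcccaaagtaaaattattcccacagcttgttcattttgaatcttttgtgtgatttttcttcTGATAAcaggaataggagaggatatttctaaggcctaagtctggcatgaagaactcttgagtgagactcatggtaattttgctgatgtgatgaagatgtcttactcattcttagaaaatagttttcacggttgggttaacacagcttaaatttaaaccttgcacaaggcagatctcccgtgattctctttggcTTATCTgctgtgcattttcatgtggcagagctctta
Hnf4a promoter, chr2:163506607-163506906, + strand: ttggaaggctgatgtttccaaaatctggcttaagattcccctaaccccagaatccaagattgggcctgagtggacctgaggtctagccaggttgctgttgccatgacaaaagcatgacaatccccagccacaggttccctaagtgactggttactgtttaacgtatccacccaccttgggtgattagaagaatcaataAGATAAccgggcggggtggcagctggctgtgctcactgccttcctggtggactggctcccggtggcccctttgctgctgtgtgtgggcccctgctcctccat
Amn promoter, chr12:111270846-111271145, + strand: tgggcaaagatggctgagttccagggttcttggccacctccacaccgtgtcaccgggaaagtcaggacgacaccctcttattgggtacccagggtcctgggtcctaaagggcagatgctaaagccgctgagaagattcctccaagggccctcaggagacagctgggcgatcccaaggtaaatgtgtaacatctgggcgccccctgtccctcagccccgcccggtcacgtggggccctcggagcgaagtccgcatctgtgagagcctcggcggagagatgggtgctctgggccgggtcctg
The Dab2 letters begin 179 bases before and 14 bases after the start, those of Hnf4a 52 bases before it, and the Amn window holds none of the letters searched. A match is a description of the sequence and no evidence that a factor binds there.

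All values are deposited RMA values on the log2 scale, and a difference of 1 on this scale is a doubling. A probe set was called at an adjusted p below 0.05 in 1 limma fit of all 8 arrays, with Benjamini-Hochberg adjustment over all 45101 probe sets. Differences stand with the standard error of that fit. Below a group mean of 5.44, the median of the array medians, a probe set is called dim. Its difference from a brighter group is then a lower bound and carries no fold. Where both groups are dim, the difference is neither a size nor a bound and carries no fold. Levels of different probe sets cannot be compared with each other. Arrays of 1 group correlated across probe sets at r = 0.991 to 0.995, which describes arrays that share most transcripts. The 3 prime minus 5 prime difference of the Gapdh control probe sets was -0.06 and -0.09 in EB_PSC, -0.01, 0.00 and -0.06 in PSC and 0.17, 0.17 and 0.08 in ESC (exact two-sided permutation p = 0.4 for EB_PSC against PSC, 0.2 for EB_PSC against ESC and 0.1 for PSC against ESC; the smallest p possible is 0.2, 0.2 and 0.1). For Actb it was 1.17 and 1.09 in EB_PSC, 1.54, 1.22 and 1.04 in PSC and 0.69, 0.98 and 1.13 in ESC.

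The first comparison asked how the 9 genes differ between EB_PSC and PSC, the kind of cell from which the embryoid bodies were made. Of the 19 probe sets, 14 were higher in EB_PSC, 1 was lower and 4 did not pass, where 34.5% of all probe sets were called (15.7% higher and 18.8% lower). Dim in both groups were 5 of the 19, among them Hnf4a 1427000_at and Cubn 1426990_at, both counted as higher. With cyclic loess normalization the split over all probe sets was 8622 higher and 6469 lower, against 7059 higher and 8491 lower as deposited. All arrays of EB_PSC lay above those of PSC for 14 member probe sets and below them for 2, against 22.9% and 33.8% of all probe sets, and 3 overlapped. The 14 rises covered 8 genes, and the fall was the only probe set of Amn. The median of the members was 1.35 log2 units, against -0.08 over all probe sets. Against ESC, 14 of 19 probe sets were higher in EB_PSC, 0 were lower and 5 did not pass, where 35.9% of all probe sets were called (16.4% higher and 19.4% lower), and each of the 9 genes had a higher probe set. At an unadjusted limma p below 0.05, too, 14 were higher there and 0 were lower. Here as well 5 of the 19 were dim in both groups, with Hnf4a 1427000_at among those counted as higher. There 14 member probe sets had all EB_PSC arrays above, 1 had them below and 4 overlapped, against 23.9% above and 31.3% below over the table. The median there was 1.21, against -0.05 over all probe sets, and the loess split was 9043 higher and 6956 lower against 7416 and 8772. In bulk RNA, more cells of a type and more RNA per cell cannot be told apart.

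**Figure D1:**
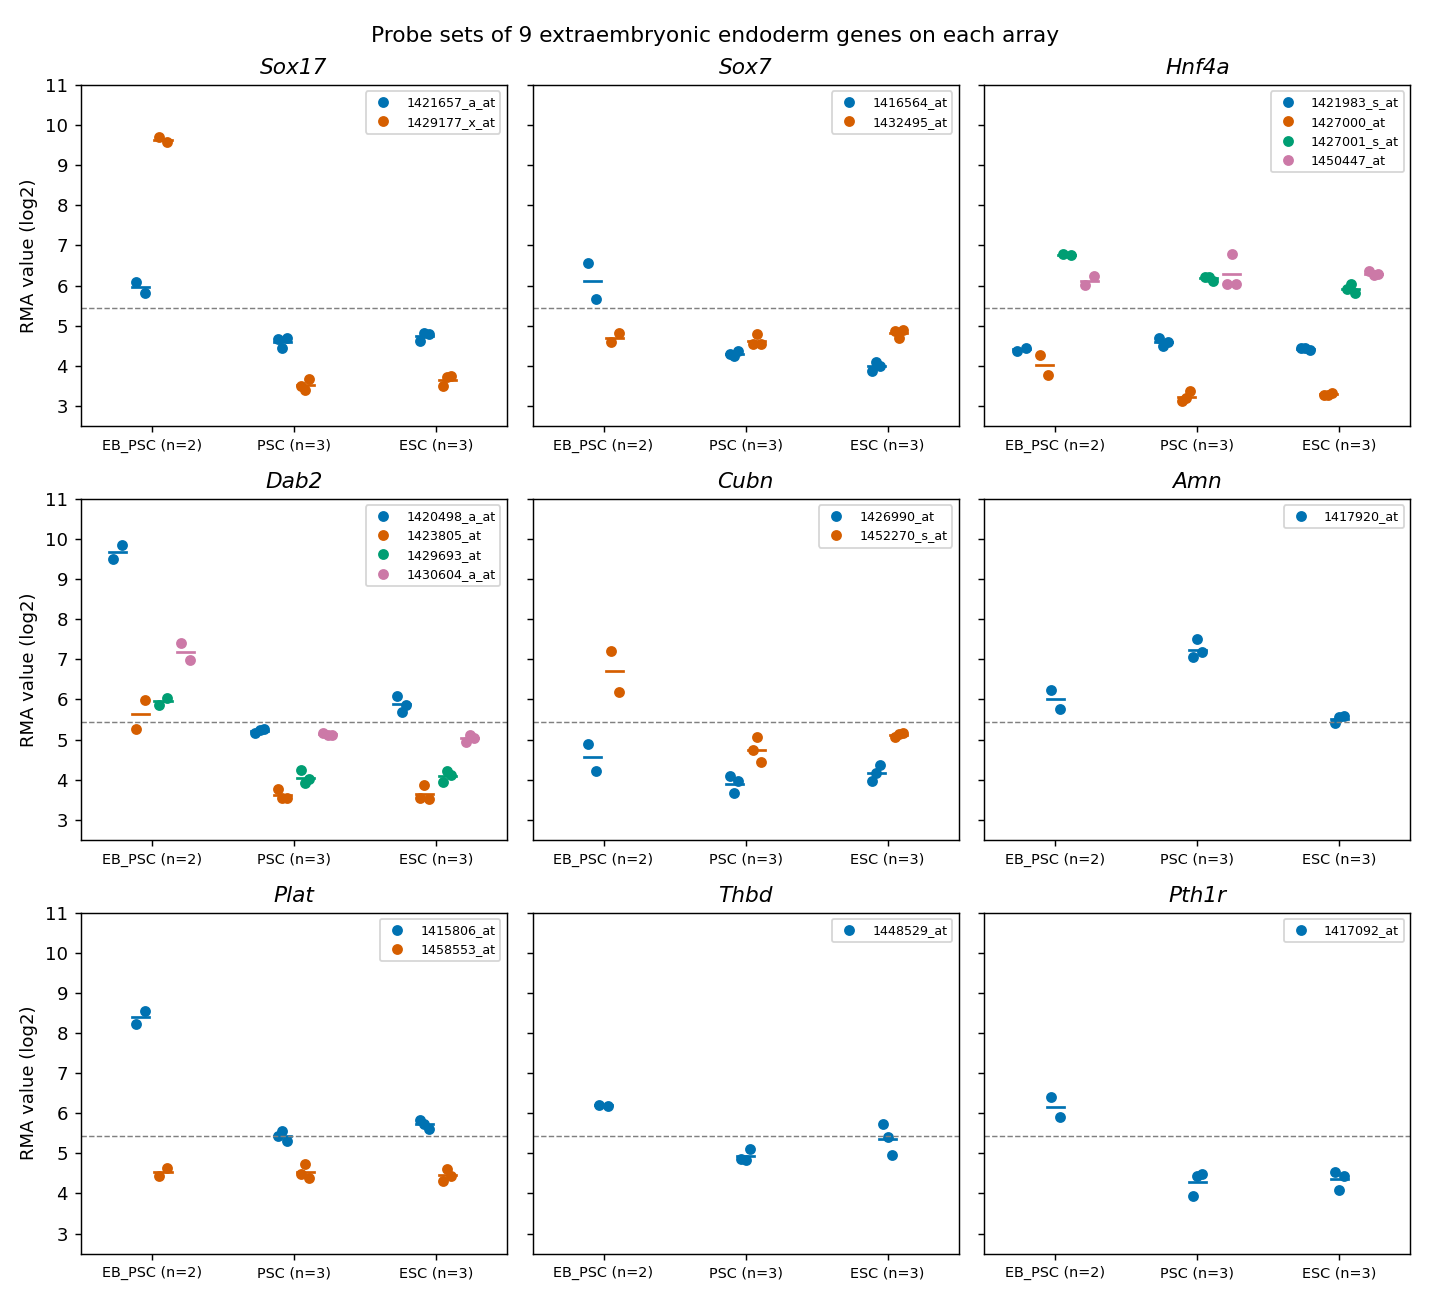
RMA values (log2, vertical axis) of all 19 probe sets on each array, 1 panel a gene, with EB_PSC (2 arrays), PSC (3) and ESC (3) along the horizontal axis. Points are arrays, bars are group means, colours are probe sets and the dashed line is the limit for dim probe sets at 5.44; Sox17 1429177_x_at stands at 9.58 and 9.69 in EB_PSC and below 4 on all other arrays, while Amn is highest in PSC.

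Sox17, a transcription factor of primitive, visceral and definitive endoderm and of endothelium, showed the largest measured difference of the members. Its probe set 1429177_x_at read 9.69 and 9.58 in EB_PSC, against 3.49, 3.39 and 3.68 in PSC and 3.48, 3.72 and 3.76 in ESC. Both embryoid body arrays lay far above all 6 stem cell arrays, which sat near the floor of the scale. The difference was 6.12 ± 0.14 against PSC (limma adjusted p = 2.62e-11) and 5.98 ± 0.14 against ESC (adjusted p = 4.28e-11), both lower bounds. The other Sox17 probe set, 1421657_a_at, read 6.10 and 5.81 in EB_PSC, against 4.66, 4.45 and 4.70 in PSC and 4.63, 4.81 and 4.80 in ESC. It was also higher on both embryoid body arrays, by 1.35 ± 0.14 against PSC (limma adjusted p = 9.06e-06) and by 1.21 ± 0.14 against ESC (adjusted p = 2e-05).

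The measured differences of the 2 Sox17 probe sets were unlike, and the gap between them was read within each array. The value of 1429177_x_at minus that of 1421657_a_at was 3.59 and 3.77 in EB_PSC, against -1.17, -1.06 and -1.03 in PSC and -1.14, -1.09 and -1.04 in ESC. Both embryoid body arrays stood apart from the 6 stem cell arrays, and the gap varied little within a group. Both probe sets were dim in PSC and ESC, so the change of the gap is one of the deposited values, neither a size nor a bound for the transcripts, and its sign on an array carries no meaning. The value was larger by 4.77 in EB_PSC than in PSC, and by 4.77 than in ESC, with an exact two-sided permutation p of 0.2 each, the smallest that 2 against 3 arrays allow (0.3 after adjustment over the 3 tests of the gene). PSC and ESC did not differ beyond their spread (0.00, exact permutation p = 1, adjusted p = 1, smallest possible 0.1). In a limma fit over all 30406 pairs of probe sets that share a gene, an alternative added after the data were seen, the gap was 4.77 ± 0.17 against PSC (adjusted p = 1.04e-09), where 30.9% of pairs were called and the median absolute gap was 0.35. Against ESC it was 4.77 ± 0.17 as well (limma adjusted p = 1.24e-09), where 35.0% of pairs were called. Counting the pair itself, 27 pairs had a gap of at least this size in either direction. For PSC against ESC the interval of the gap was -0.32 to 0.33 (limma adjusted p = 0.992), where 14.0% of pairs were called. The suffix _x_at marks probes that may also bind other transcripts, and the suffix _a_at marks probes that several transcripts of 1 gene share. Both probe sets put Sox17 higher in EB_PSC. Both differences are lower bounds, so whether the true rises differ in size cannot be told from them.

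**Figure D2:**
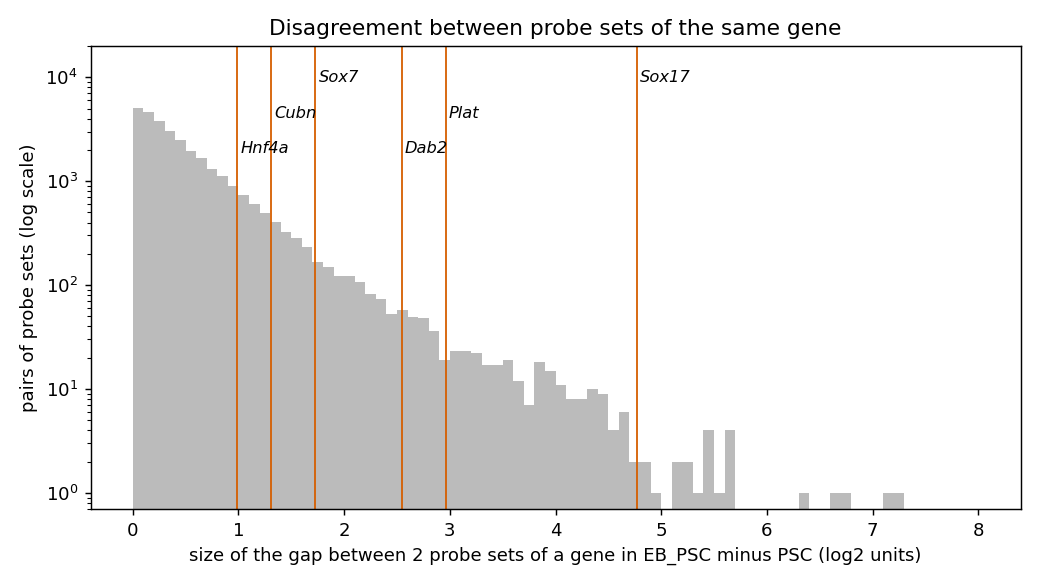
Sizes of the gap between 2 probe sets of 1 gene in EB_PSC minus PSC (log2 units, horizontal axis) for all 30406 pairs, as numbers of pairs on a log scale (vertical axis). Lines mark the pair of Sox17, Sox7, Cubn and Plat and the pair with the largest gap of Hnf4a and Dab2; Sox17 at 4.77 lies far out in the tail, and the median gap is 0.35. Gaps are those of the deposited values, and every marked pair holds probe sets that are dim in PSC.

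The 5 genes whose brightest probe set followed Sox17 1429177_x_at most closely over the 8 arrays, among 11714 genes above the dim limit, were Golim4, Tnni1, Actc1, Ssbp2 and Hbb-bh1. Pearson's r was between 0.999 and 1.00 for all 5. Tnni1 and Actc1 encode muscle proteins and Hbb-bh1 an embryonic globin. The 8 points fall into 2 embryoid body arrays and 6 stem cell arrays, and r describes that split. Among the members, r with Sox17 was 0.988 for Plat, 0.985 for Dab2, 0.960 for Pth1r, 0.917 for Cubn, 0.856 for Thbd, -0.06 for Sox7, -0.23 for Amn and -0.34 for Hnf4a, each read on its brightest probe set. For Sox7 and Hnf4a that is a probe set without a call.

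Sox7, the close relative of Sox17 that acts in parietal endoderm and in endothelium, was higher in EB_PSC on 1 of its 2 probe sets. The probe set 1416564_at read 6.57 and 5.66 in EB_PSC, against 4.29, 4.26 and 4.37 in PSC and 3.88, 4.11 and 4.0 in ESC. The embryoid body arrays differed from each other by more than the stem cell arrays did, and both stood above them. The difference was 1.81 ± 0.21 against PSC (limma adjusted p = 2.36e-05) and 2.12 ± 0.21 against ESC (adjusted p = 5.27e-06). The second probe set, 1432495_at, ran from 4.54 to 4.88 over all 8 arrays, below the dim limit throughout, and its groups overlapped. Its difference from PSC was 0.08 ± 0.14 (limma adjusted p = 0.704, 95% interval -0.22 to 0.38). A probe set this dim shows neither a response nor the lack of one.

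Hnf4a, the nuclear receptor of the absorptive visceral endoderm and of liver, gut and kidney, was called higher in EB_PSC on 2 of its 4 probe sets. Only 1427001_s_at of these was above the dim limit. The probe set 1427001_s_at read 6.78 and 6.75 in EB_PSC, against 6.21, 6.22 and 6.10 in PSC and 5.92, 6.03 and 5.82 in ESC. All 3 groups were above the dim limit and did not overlap. The level was 1.51-fold higher in EB_PSC than in PSC (0.59 ± 0.12, limma adjusted p = 0.00208) and 1.79-fold higher than in ESC (0.84 ± 0.12, adjusted p = 0.000125). The probe set 1427000_at read 4.28 and 3.77 in EB_PSC, against 3.12, 3.19 and 3.38 in PSC and 3.28, 3.28 and 3.32 in ESC. It was called higher than in PSC (0.79 ± 0.16, limma adjusted p = 0.00144) and than in ESC (0.73 ± 0.16, adjusted p = 0.00235). All 3 groups were dim, so these differences are neither sizes nor bounds.

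The other 2 Hnf4a probe sets gave no call. Among these, 1450447_at was above the dim limit in all 3 groups and 1421983_s_at was dim in each. The probe set 1450447_at read 6.01 and 6.24 in EB_PSC, against 6.04, 6.79 and 6.05 in PSC and 6.35, 6.25 and 6.29 in ESC. PSC 2 stood above the other PSC arrays, and the difference of EB_PSC from PSC was -0.17 ± 0.20 (limma adjusted p = 0.574, 95% interval -0.60 to 0.27). The probe set 1421983_s_at stayed between 4.38 and 4.70 on all arrays, with a difference of -0.19 ± 0.12 from PSC (limma adjusted p = 0.249). For both Sox7 and Hnf4a the probe set with the highest mean over the arrays was one that did not pass, so with 1 such probe set per gene neither gene is called.

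Dab2, the adaptor that couples cargo receptors to clathrin, was higher in EB_PSC on all 4 of its probe sets. The probe set 1420498_a_at read 9.49 and 9.84 in EB_PSC, against 5.16, 5.24 and 5.26 in PSC and 6.10, 5.68 and 5.85 in ESC. The 3 groups did not overlap, with PSC lowest. The difference was 4.44 ± 0.15 against PSC (limma adjusted p = 5.06e-10), and the level was 13.8-fold higher than in ESC (3.79 ± 0.15, adjusted p = 2.05e-09). The probe sets 1430604_a_at, 1423805_at and 1429693_at were higher than in PSC by 2.06 ± 0.14, 2.01 ± 0.20 and 1.90 ± 0.14, with limma adjusted p of 2.4e-07, 5.58e-06 and 5.28e-07. All 4 probe sets were dim in PSC, so the 4 differences are lower bounds and their sizes have no order.

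Cubn encodes the large peripheral receptor of visceral endoderm and kidney tubule that binds vitamin B12 with intrinsic factor, lipoproteins and other ligands. Its probe set 1452270_s_at read 7.21 and 6.19 in EB_PSC, against 4.73, 5.05 and 4.44 in PSC and 5.06, 5.14 and 5.17 in ESC. Both embryoid body arrays stood above all others, EB_PSC 1 by the larger margin. The difference was 1.96 ± 0.25 against PSC (limma adjusted p = 4.96e-05) and 1.58 ± 0.25 against ESC (adjusted p = 0.000242). The dimmer probe set 1426990_at read 4.89 and 4.22 in EB_PSC, against 4.08, 3.67 and 3.96 in PSC and 3.96, 4.16 and 4.37 in ESC. EB_PSC 1 alone stood clear of the stem cells, and all 3 groups were dim on this probe set. It passed against PSC (0.65 ± 0.20, limma adjusted p = 0.0229), a call that ended without EB_PSC 1 (0.32, adjusted p = 0.313) and without PSC 2 (0.54, adjusted p = 0.0905). Against ESC it did not pass (0.39 ± 0.20, limma adjusted p = 0.161), but did without EB_PSC 2 (0.73, adjusted p = 0.019). Over its alternatives the adjusted p ran from 0.0038 to 0.313 against PSC and from 0.019 to 0.899 against ESC.

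Amn encodes the membrane anchor that carries cubilin to the apical surface, and it was the only member with a call in the other direction. Its probe set 1417920_at read 6.25 and 5.75 in EB_PSC, against 7.06, 7.50 and 7.18 in PSC and 5.41, 5.57 and 5.59 in ESC. PSC stood highest on all 3 arrays, EB_PSC lay between the other groups, and no groups overlapped. The level was 2.37-fold lower in EB_PSC than in PSC (-1.25 ± 0.17, limma adjusted p = 0.000101) and 3.30-fold higher in PSC than in ESC (1.72 ± 0.15, adjusted p = 1.94e-05). Against ESC it was 1.39-fold higher in EB_PSC (0.47 ± 0.17, limma adjusted p = 0.0479). That last call ended without EB_PSC 1 (0.23, limma adjusted p = 0.454), without any 1 of the 3 ESC arrays (adjusted p of 0.0625 to 0.121), with a repeated quantile normalization (0.075), with the compared groups fitted alone (0.0599) and with a trended variance prior (0.0536), over a range of 0.0132 to 0.454.

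Amn lies on chromosome 12, and its neighbours there were read after its values had been seen. The neighbours were the nearest 10 genes on either side with a group mean above 5.44 in PSC or ESC, and dimmer genes were skipped. Over all genes, dim ones included, 18.7% were called in PSC against ESC on their brightest probe set (8.2% higher). Of the 20 neighbours, 17 were also higher in PSC than in ESC. In limma's test 0 were lower and 3 did not pass (B930059L03Rik, Ankrd9 and Tnfaip2). At an unadjusted p below 0.05 the counts were 17 and 0 as well. Their median difference was 0.89 and the range -0.15 to 1.66. The highest was Ckb, a creatine kinase gene (1.66, limma adjusted p = 3.85e-06), and Amn at 1.72 was above all 20. For EB_PSC against ESC, 13 of the 20 neighbours were higher, 1 (Mok) was lower and 6 did not pass, with a median of 0.55 (43.1% of genes called, 18.6% higher and 24.5% lower). For EB_PSC against PSC, 2 rose, 9 fell and 9 did not pass, with a median of -0.22 (41.7% of genes called, 23.7% lower). In each of the 3 comparisons the median of the neighbours had the same sign as the difference of Amn, and the part of the neighbourhood in the Amn values was not tested.

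**Figure D3:**
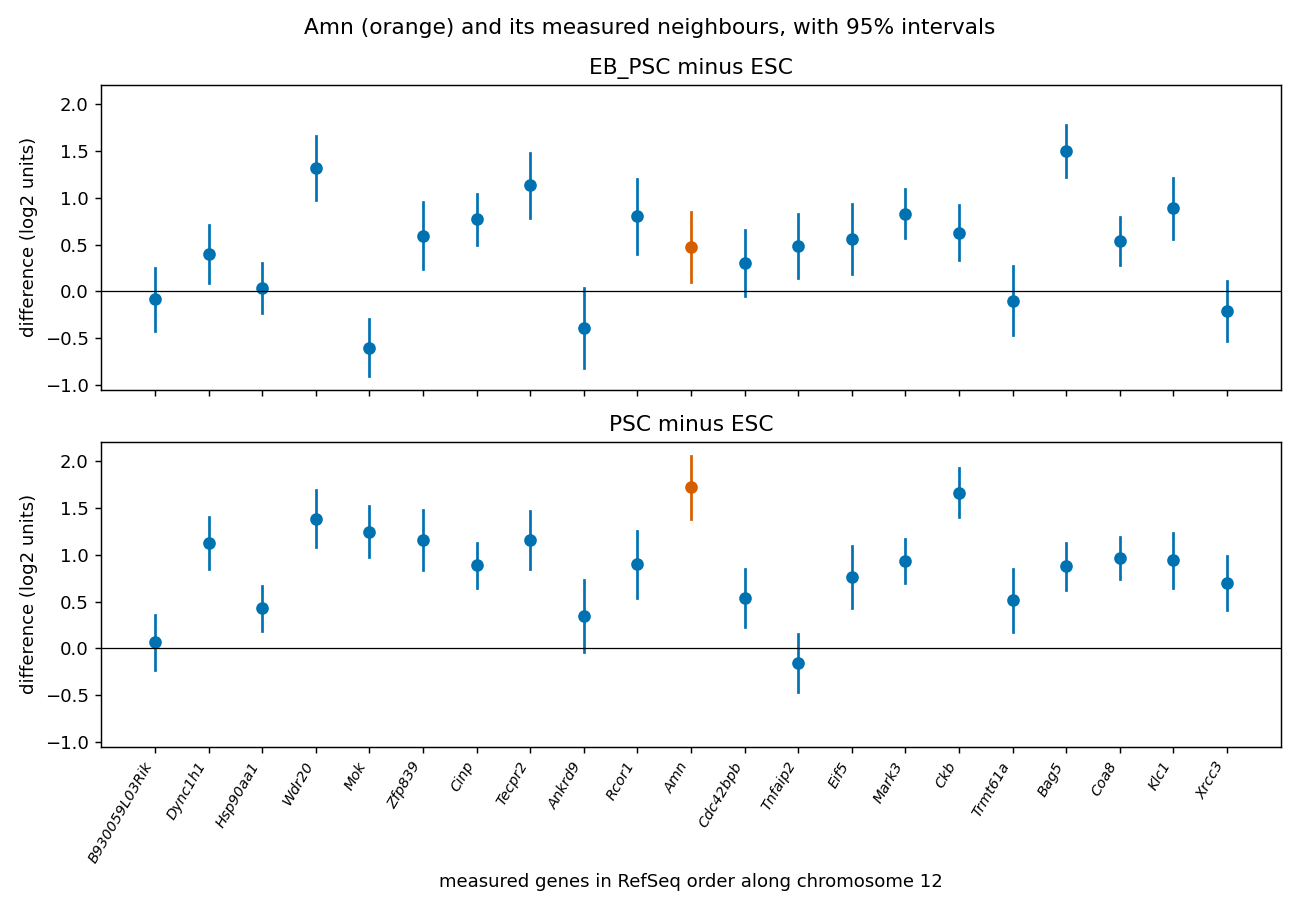
Difference in log2 units (vertical axis) of Amn (orange) and 10 genes on either side of it (blue), in RefSeq order along chromosome 12. Panels show EB_PSC minus ESC and PSC minus ESC. Neighbours are the nearest genes with a group mean above the dim limit in PSC or ESC. Points are genes on their brightest probe set and bars are 95% intervals of the limma fit; 17 of 20 neighbours are called higher in PSC than in ESC, and Amn is above all of them there.

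Plat, the tissue-type plasminogen activator that parietal endoderm and endothelium secrete, was higher in EB_PSC on 1 of its 2 probe sets. The probe set 1415806_at read 8.23 and 8.55 in EB_PSC, against 5.42, 5.55 and 5.31 in PSC and 5.82, 5.74 and 5.61 in ESC. The embryoid body arrays stood well above all stem cell arrays. The difference was 2.96 ± 0.14 against PSC (limma adjusted p = 8.22e-09), and the level was 6.33-fold higher than in ESC (2.66 ± 0.14, adjusted p = 2.01e-08). The second probe set, 1458553_at, lay between 4.30 and 4.75 on all 8 arrays with overlapping groups (0.00 difference from PSC, limma adjusted p = 0.999, 95% interval -0.32 to 0.32). It was dim in all 3 groups and, like the dim Sox7 probe set, shows neither a response nor the lack of one.

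Thbd encodes thrombomodulin, the thrombin receptor of parietal endoderm, trophoblast and endothelium. Its probe set 1448529_at read 6.21 and 6.18 in EB_PSC, against 4.85, 4.84 and 5.10 in PSC and 5.72, 5.4 and 4.97 in ESC. Both embryoid body arrays stood above all others, and the ESC arrays spread over the widest range of the 3 groups. The difference was 1.26 ± 0.19 against PSC (limma adjusted p = 0.000185) and 0.83 ± 0.19 against ESC (adjusted p = 0.00355). Pth1r encodes the receptor for parathyroid hormone and its related peptide, a signal under which mouse primitive endoderm cells turn parietal. Its probe set 1417092_at read 6.41 and 5.90 in EB_PSC, against 3.94, 4.43 and 4.49 in PSC and 4.52, 4.08 and 4.45 in ESC. All 6 stem cell arrays lay below the dim limit and below both embryoid body arrays. The difference was 1.87 ± 0.20 against PSC (limma adjusted p = 1.53e-05) and 1.81 ± 0.20 against ESC (adjusted p = 1.73e-05).

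**Figure D4:**
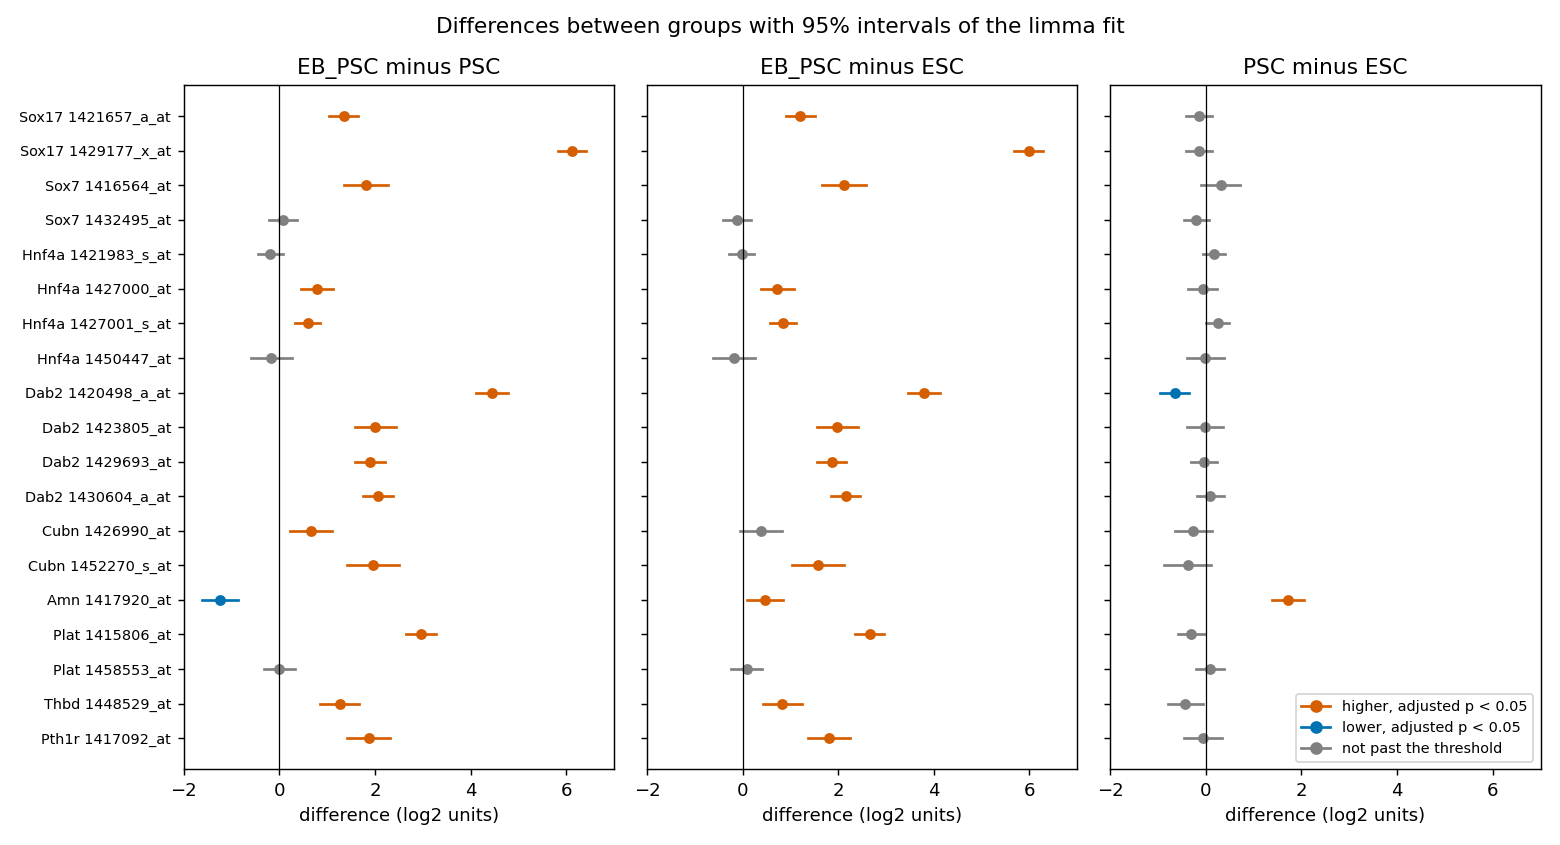
Differences in log2 units (horizontal axis) of the 19 probe sets for EB_PSC minus PSC, EB_PSC minus ESC and PSC minus ESC, with 95% intervals of the limma fit. Points right of 0 are higher in the group named first; 14 probe sets are called higher in EB_PSC in each of the first 2 comparisons, and 2 are called in PSC against ESC.

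The last comparison set the undifferentiated cells against each other. Of the 19 probe sets, 1 was higher in PSC than in ESC (Amn), 1 was lower (Dab2 1420498_a_at) and 17 did not pass, where 15.6% of all probe sets were called (7.05% higher and 8.5% lower), and 14 of the 19 were dim in both groups. All PSC arrays lay above the ESC arrays for 4 member probe sets and below for 3, against 16.2% and 15.8% of all probe sets. The median difference was -0.06, against 0.02 over all probe sets. Dab2 1420498_a_at was lower by 0.65 ± 0.14 in PSC than in ESC (limma adjusted p = 0.00655), a lower bound. The other 3 Dab2 probe sets differed by -0.04 to 0.10 but were dim in both groups, so they show neither a difference nor the lack of one. The mean over the gene's 4 probe sets, which takes them in, did not pass (-0.15, limma adjusted p = 0.3). Both Sox17 probe sets differed by -0.14, with 95% intervals of -0.41 to 0.13, and were dim in both groups. Thbd, also dim in both groups, differed by -0.43 ± 0.17 (limma adjusted p = 0.112) and passed without ESC 3 (-0.63, adjusted p = 0.019). Hnf4a 1427001_s_at differed by 0.25 ± 0.11 (limma adjusted p = 0.157) and passed with array weights (0.31, adjusted p = 0.035). Fibroblast and feeder markers were lower in PSC on the same arrays for 7 of 9 measured genes, with 2 not past the test. Over all genes on their brightest probe set, 8.2% were called higher in PSC than in ESC and 10.5% lower. The summed linear signal of the fibroblast and feeder markers was 656 to 764 in PSC and 1219 to 1676 in ESC. Their part in the Dab2 difference was not tested.

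The partners of the members were read from lists of genes named for each pathway, each gene on its brightest probe set. Of 10 measured primitive endoderm factors, 9 were higher in EB_PSC than in PSC and 1, Hhex, did not pass (0.24, limma adjusted p = 0.208), with a list median of 2.67 against -0.09 over all genes, of which 18.0% were called higher and 23.7% lower. Foxa1, a forkhead factor, was higher by 4.66 ± 0.28 (limma adjusted p = 7.19e-08), and Eomes and Lhx1 by 3.37 ± 0.19 and 3.12 ± 0.25. Gata6, which starts the primitive endoderm program, read 8.08 and 7.76 in EB_PSC, against 5.21, 5.41 and 5.48 in PSC, and Gata4 read 6.38 and 6.19 in EB_PSC, against 4.80, 4.95 and 5.06 in PSC. Both GATA factors were called, with differences of 2.55 ± 0.15 (limma adjusted p = 6.93e-08) and 1.34 ± 0.14 (adjusted p = 7.69e-06). Foxa2 rose by 2.79 ± 0.16 and Pdgfra by 2.86 ± 0.18. Whether primitive endoderm or other cells of the embryoid bodies carried these transcripts was not tested, and none of the 14 lists holds heart genes. In PSC against ESC, 0 of the 10 factors passed in limma's test, and at an unadjusted p below 0.05, 1 was higher and 1 was lower.

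Of 14 measured products of visceral endoderm, 9 were higher in EB_PSC than in PSC, where 18.0% of all genes were called higher and 23.7% lower. Of the 14, 0 were lower and 5 did not pass in limma's test, with a median of 1.66. At an unadjusted p below 0.05, 10 were higher and 0 were lower. The fetal serum protein Afp read 9.90 and 11.4 in EB_PSC, against 4.08, 3.95 and 4.30 in PSC (6.53 ± 0.31, limma adjusted p = 7.87e-09). The retinol carrier Rbp4 and the thyroid hormone carrier Ttr were higher by 5.07 ± 0.28 and 2.13 ± 0.28, and Spink1, a secreted protease inhibitor, by 5.47 ± 0.18. The order of both embryoid body arrays varied within the list: of the 9 higher products, 5 read higher on EB_PSC 2, among them Afp, Rbp4 (11.2 against 9.88) and Ttr (9.28 against 7.92), and 4 on EB_PSC 1, which were Cited1 (7.67 against 6.69), Lrp2 (7.75 against 7.34), Apoa1 (7.47 against 7.22) and Spink1 (11.62 against 11.40). Of 15 genes of parietal endoderm and basement membrane, 11 were higher and 4 did not pass, with a median of 1.79. The keratin genes Krt8 and Krt18 rose by 5.11 ± 0.17 and 4.79 ± 0.14, and the collagen IV genes Col4a1 and Col4a2 by 4.73 ± 0.13 and 4.49 ± 0.15. The 4 that did not pass were the laminin genes Lama1 (0.07) and Lamc1 (-0.45), the nidogen gene Nid2 (-0.01) and the perlecan gene Hspg2 (-0.14). Against ESC, Lamc1 was lower in EB_PSC (-1.24, limma adjusted p = 0.000152).

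Of 10 measured endocytic partners of Dab2, cubilin and amnionless, 1 was higher in EB_PSC than in PSC, 2 were lower and 7 did not pass, with a median of -0.07, where 18.0% of all genes were called higher and 23.7% lower. The higher one was Lrp2, the large receptor megalin that internalizes with cubilin (1.71 ± 0.24, limma adjusted p = 0.000112), and the lower ones were the adaptor subunit genes Ap2a1 (-0.92 ± 0.22, adjusted p = 0.00491) and Ap2a2 (-0.50 ± 0.17, adjusted p = 0.0338). Of 9 measured genes of plasminogen activation and the thrombin pathway, 4 rose, 1 fell and 4 did not pass, with a median of 0.29. The thrombin receptor gene F2r read 12.80 and 12.81 in EB_PSC, against 8.31, 8.55 and 8.52 in PSC (4.35 ± 0.19, limma adjusted p = 3.35e-09). The initiator of coagulation F3 and the urokinase receptor gene Plaur rose by 2.64 ± 0.18 and 1.84 ± 0.16, while prothrombin (F2) fell by 0.82 ± 0.18 (limma adjusted p = 0.00268). Of 7 measured genes of parathyroid hormone signalling, 5 were higher and 2 did not pass, with a median of 0.66. They included the G protein genes Gnas (1.17 ± 0.15, limma adjusted p = 5.89e-05) and Gnaq (0.76 ± 0.12, adjusted p = 0.000415).

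**Figure D5:**
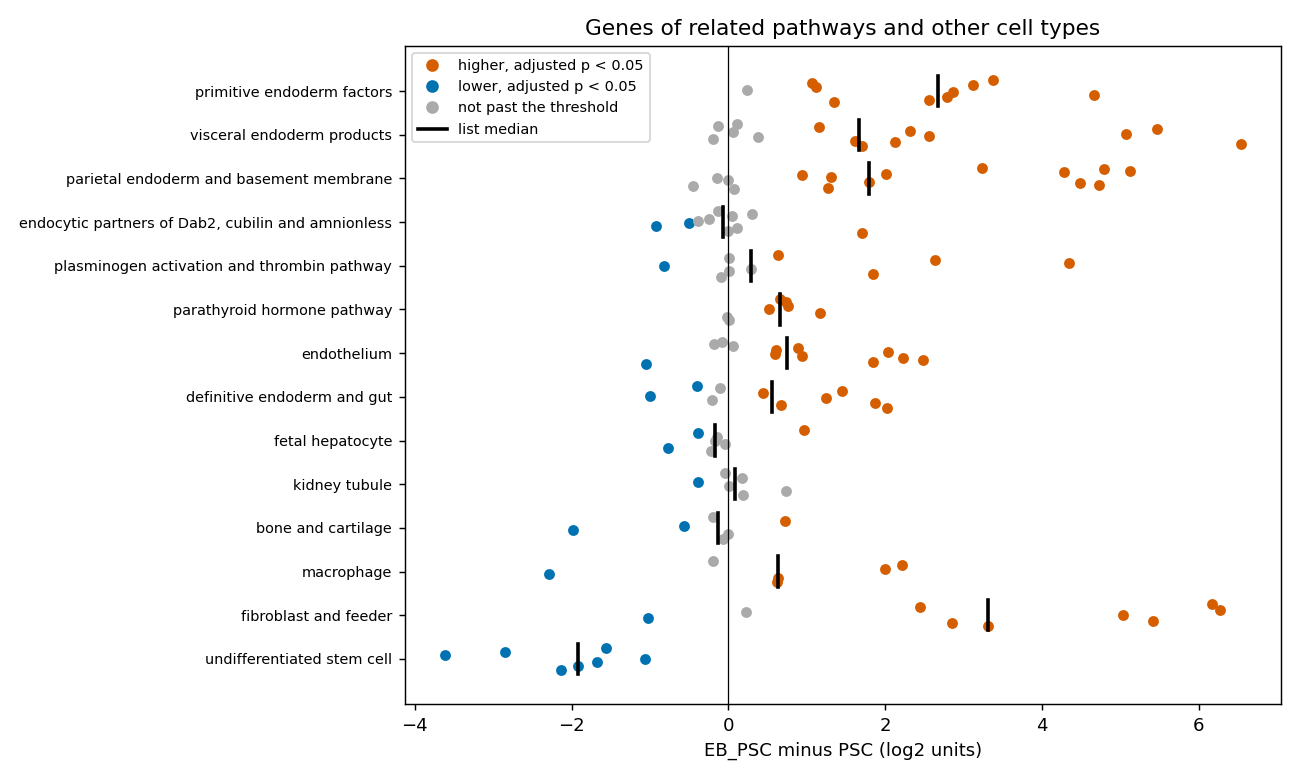
Differences in log2 units (horizontal axis, EB_PSC minus PSC) of the measured genes of 14 lists, each gene on its brightest probe set. Points are genes coloured by call and black bars are list medians; 9 of 10 primitive endoderm factors are called higher and all 7 undifferentiated stem cell genes are called lower.

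Markers of other cell types that read some of the 9 genes also moved in EB_PSC, and their part in the members' rises was not tested. Over all genes, 18.0% were called higher in EB_PSC than in PSC and 23.7% lower. Of 12 endothelial genes, 8 were higher in EB_PSC than in PSC, 1 was lower and 3 did not pass, with a median of 0.74 and a summed linear signal of 1293 to 1394 in EB_PSC, against 729.5 to 812.8 in PSC and 742.8 to 931.6 in ESC. The receptor genes Kdr and Tek rose by 2.48 ± 0.13 and 2.23 ± 0.20, the junction gene Cdh5 by 1.84 ± 0.20 and Sox18 by 0.59 ± 0.20, while Pecam1 fell by 1.05 ± 0.22 (limma adjusted p = 0.00261). Of 10 genes of definitive endoderm and gut, 6 rose, 2 fell and 2 did not pass, and the summed signal was 1446 to 1472 in EB_PSC, against 1488 to 1844 in PSC and 3008 to 3523 in ESC. Epcam alone gave 630 to 746 of it in EB_PSC, against 860 to 973 in PSC and 1825 to 2040 in ESC, and the genes that fell were Epcam and Trh, so the sum runs against the 6 that rose. The chemokine receptor gene Cxcr4 and the early mesendoderm factor Mixl1 rose by 2.03 ± 0.23 and 1.87. Of 9 fibroblast genes, 7 rose, 1 fell and 1 did not pass in EB_PSC against PSC. Their median of 3.31 was the largest of all the lists in that comparison. Postn, Lum, Col3a1 and Pdgfrb rose by 6.27 ± 0.19, 6.16 ± 0.31, 5.42 ± 0.22 and 5.03 ± 0.23. The summed signal of the fibroblast genes was 10295 to 13692 in EB_PSC, against 656 to 764 in PSC and 1219 to 1676 in ESC. Of 6 macrophage genes, 4 rose, 1 fell and 1 did not pass, with a summed signal of 419 to 541 in EB_PSC, against 583 to 693 in PSC and 354 to 370 in ESC. The gene that fell was Cd68, and without it the sum was 325 to 444 in EB_PSC, against 178 to 194 in PSC and 186 to 201 in ESC.

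All 7 measured fetal hepatocyte genes and all 6 measured kidney tubule genes averaged below the dim limit in each of the 3 groups. The summed signal of the hepatocyte genes was 154 to 176 in EB_PSC, against 161 to 194 in PSC and 161 to 177 in ESC, and that of the kidney genes 113 to 152 in EB_PSC, against 112 to 122 in PSC and 109 to 136 in ESC. Among all genes, 18.0% were called higher in EB_PSC than in PSC and 23.7% lower. Of the hepatocyte genes, 1 was higher in EB_PSC than in PSC, 2 were lower and 4 did not pass. The higher one was Hpx (0.97 ± 0.20, limma adjusted p = 0.00179), which was also higher than in ESC (0.96, adjusted p = 0.00175). Of the kidney genes, 1 was lower (Slc12a1, -0.39, limma adjusted p = 0.0324) and 5 did not pass. Of the 6 bone and cartilage genes, 1 was higher in EB_PSC than in PSC, 2 were lower and 3 did not pass, with a summed signal of 325 to 385 in EB_PSC, against 570 to 604 in PSC and 542 to 667 in ESC. Without Alpl, which fell by 1.98 ± 0.15, the sum was 243 to 291 in EB_PSC, against 233 to 246 in PSC and 218 to 245 in ESC. The 7 genes of undifferentiated stem cells were all lower in EB_PSC than in PSC, with a median of -1.92. Pou5f1, the Oct4 gene, read 9.54 and 9.59 in EB_PSC, against 11.63, 11.75 and 11.72 in PSC and 12.58, 12.12 and 12.21 in ESC, so its transcript was still bright in the embryoid bodies at a level below that of the stem cells.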

How the data were processed

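The 8 value columns of the deposited table hold log2 values that the authors made with RMA in Bioconductor, per the labels and the submitters' processing notes. No version or setting is given in those sources, and the log2 scale was read from the values. GEO's platform annotation gave 34958 probe sets 1 gene, 932 several and 9211 none. RMA gives arrays nearly 1 distribution and compresses dim differences.

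Differences were fitted in R 4.3.3 by limma 3.58.1 (lmFit and eBayes on group contrasts; two-sided; 5 residual and 7.13 prior degrees of freedom). Counts and figures were made in Python 3.11.15 (pandas 2.3.3, NumPy 2.4.6, Matplotlib 3.10.9). The precision is limited by the number of arrays. On simulated data for 45101 probe sets with 200 changed, the fit of EB_PSC against PSC recovered 5.97% of changes of 0.5, 76.1% of 1 and 98.5% of 2 log2 units, with 4 unchanged called. In the deposited data 34.5% of probe sets were called there, far more than were changed in the simulation. The adjustment depends on that share, so the simulated recovery is not that of the fit here.

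The members, the 14 lists and the rules were chosen with earlier results of these data known. All member probe sets are described; lists name up to 4 called genes by size plus 13 fixed genes. List genes that did not pass, that fell or that carry a list's summed signal were also named after their values were seen. Of 137 listed genes 127 were measured and 10 were not analysed here. Pairs of probe sets and the neighbours of Amn were added after seeing the data. Alternatives were a repeated quantile and a cyclic loess normalization, a filter on dim probe sets, 1 probe set or the mean per gene, the compared groups alone, a trended robust prior, each array left out, a replicate block and array weights.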

Additional observations from a re-analysis of the deposited data

How the results depend on the processing

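The counts of called member probe sets stayed within 1.5 times of the main ones under both normalizations, the dim filter, the compared groups alone, the trended prior and array weights, and 701 of the other comparisons of single probe sets with an alternative kept direction and call. With 1 probe set per gene, 7 of 9 genes passed in EB_PSC against PSC (6 higher, 1 lower) and 7 against ESC; with the mean of a gene's probe sets, 8 (7 higher, 1 lower), 9 and, for PSC against ESC, 1. Over all 18194 genes, with the adjustment over genes alone, the brightest probe set gave 7995, 8165 and 3782 calls and the mean 8116, 8348 and 3571. Over all 45101 probe sets the calls were 15550, 16188 and 7015. Leaving out 1 array gave 4375 to 7640 calls for PSC against ESC (4375 without PSC 1, 4604 without PSC 2), 14 to 15 member calls for EB_PSC against PSC, 13 to 15 against ESC and 2 to 3 for PSC against ESC.

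The Sox17 gap passed only in the limma fit over all pairs (4.77 against PSC and 4.77 against ESC), since exact tests of so few arrays cannot; leaving out 1 array gave 4.68 to 4.86 against PSC, 4.69 to 4.86 against ESC and -0.027 to 0.046 for PSC against ESC. Averaging a gene's probe sets gave Hnf4a 0.26 in EB_PSC against PSC (limma adjusted p = 0.0516), 0.34 against ESC (adjusted p = 0.0121) and 0.089 in PSC against ESC, and Sox7 0.94 against PSC, 1.00 against ESC (adjusted p = 1.92e-05) and 0.057. Plat 1458553_at turned to 0.0077 with quantile, 0.063 with loess and 0.0087 with weights against PSC, and Dab2 1423805_at to 0.062 with weights for PSC against ESC. Leaving out 1 array turned further differences that had not passed: against PSC, Hnf4a 1450447_at ran from -0.30 to 0.081, Plat 1458553_at from -0.10 to 0.10 and Sox7 1432495_at from -0.034 to 0.19; against ESC, Hnf4a 1421983_s_at from -0.045 to 0.0089 and Plat 1458553_at from -0.012 to 0.19; for PSC against ESC, Pth1r from -0.20 to 0.11, Hnf4a 1450447_at from -0.25 to 0.12, Dab2 1423805_at from -0.098 to 0.094, Dab2 1429693_at from -0.13 to 0.031 and Plat 1458553_at from -0.011 to 0.17. Except where the number of units or arrays shows it, the cause was not tested.

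Whether the replicate numbers pair the samples could not be settled, and the main fit used no pairing. Same-numbered arrays' deviations from their group means correlated at -0.30 to 0.21, and those of differently numbered arrays at -0.21 to 0.22. Deviations cancel within a group of so few arrays, which ties these correlations to each other. With the replicate block 15, 13 and 2 member probe sets were called, and 14458, 15058 and 6521 over the table; Amn in EB_PSC against ESC did not pass (0.47, limma adjusted p = 0.0941). With 2 embryoid body arrays, small differences and those of dim probe sets are the least certain.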
